A study of Mus musculus with 5 samples.

Results

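The genes described are the insulin-like growth factor (IGF) ligands *Igf1* and *Igf2*, the receptors *Igf1r* and *Igf2r*, and 6 IGF binding protein genes, *Igfbp2* to *Igfbp7*. The rule that picks them is by symbol, and they make up 10 of the 32285 genes in the count tables. Their UMI counts (unique molecular identifiers, each tagging 1 captured transcript) were taken from all 5 single-cell RNA-sequencing libraries. All mice were males. The labels give the strain as C57BL/6N, while the study's text names C57BL/6J as its background. Of the libraries, 3 came from the penis (the glans, with the prepuce taken off) of pups at P6, some of them littermates, 1 from the forelimb and 1 from the hindlimb of embryos at embryonic day 15. No group carried a transgene or received a treatment. The labels do not tie libraries to animals, and the limb libraries may share embryos, so p-values measure only the spread between these libraries. Tissue, age and tissue preparation change together between the groups and cannot be told apart. The forelimb and hindlimb, with 1 library each, were not tested against each other.

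IGF1 and IGF2 are secreted growth factors that drive the growth of most tissues through the tyrosine kinase receptor IGF1R. IGF1 is the main mediator of growth hormone, and IGF2 is the dominant ligand before birth. IGF2R binds IGF2 and carries it to the lysosome, so it removes ligand. IGF binding proteins hold the ligands outside the cell, prolong their life or keep them from the receptor, and are cut by proteases such as the pappalysins. In the skeleton the system is known for the growth of cartilage and bone. *Igf2* and *Igf2r* are imprinted genes, expressed mainly from the paternal and the maternal allele, respectively.

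After the filters of the study's methods, the penis libraries kept 6788, 7085 and 5708 cells, the forelimb 22057 and the hindlimb 20514. Kept cells held 51529854 to 68417925 UMIs per penis library, 142718533 in forelimb and 148752710 in hindlimb. Pairs of libraries shared 20 to 203 cell barcodes. Cells were sorted into types by how many marker genes had a UMI (at least 40% of a list of markers, or 50% for mesenchyme), none of them an IGF gene, and each level is the sum over the cells of a type, in counts per 1000000 UMIs of those cells (CPM). The gates compared between penis and limb held 138 cells or more in every library, apart from 42 to 64 lymphatic endothelial cells. Mast and muscle cells were too few in the penis and were compared within the limb alone. Most gates other than mesenchyme were led by their own markers. The 10 leading genes of mesenchyme held none of its markers in the penis and 1 in each limb library, and included *Clec3b*, *Mfap5* and *Dpt* in most libraries. Those of hindlimb lymphatic cells held 4 lymphatic and 4 blood endothelial markers. Penis cells in the cartilage gate were led by *A2m*, *Cnmd* and *Grem1*, with the cartilage marker *Col9a3* among the 10 leading genes of each library. *Col9a3* stood at 480, 481 and 492 CPM there, against 14.1, 13.3 and 11.8 in mesenchyme. These cells also carried a median of 9 of 10 mesenchyme markers, so they are called cartilage-gate cells. The macrophage gate of the penis and of the hindlimb was led in part by *S100a9*, a neutrophil gene. The keratinocyte gate was led by *Krt14* and *Krt5* in the penis and by *Asprv1*, a gene of differentiated epidermis, in the limb. In the penis libraries 31 of 42, 28 of 49 and 29 of 54 lymphatic cells held only the minimum of 3 lymphatic markers. In forelimb 22 of 64 and in hindlimb 21 of 58 did. The median lymphatic cell held 3 lymphatic and 10 blood endothelial markers in each penis library. It held 6 and 6 in forelimb and 5 and 7 in hindlimb, so the lymphatic gate differed in make-up between the tissues. Lymphatic cells below means cells of this gate. UMI sums were compared with edgeR's quasi-likelihood test. A gene was called higher or lower when its Benjamini-Hochberg adjusted p was under 0.01 and its absolute log2 fold change above 1.

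In mesenchyme, the connective tissue cells that made up most cells of every library, the 2 ligands differed in opposite directions between penis and limb. *Igf1* was higher and *Igf2* lower in the penis, and 5 of the 6 binding protein genes were higher in the penis. In all, 8 of the 10 genes were called, 6 higher and 2 lower, in a comparison where 25.2% of all genes tested were called. Their median log2 fold change (penis over limb) was 1.20, against 0.01 for all genes tested. Over all kept cells the count was also 8 of 10, with 6 higher and 2 lower, where 24.5% of all genes were called. There, *Igf2r* (-1.0007 ± 0.07, SE) lost its call without penis library 1 (-0.94), penis library 2 (-0.9998) or the hindlimb library (-0.95), and *Igfbp6* (1.21 ± 0.25, SE) without penis library 1 (1.18), penis library 2 (1.17) or the hindlimb library (0.78). The *Igf2r* call was also lost when cells were thinned to 2000 UMIs (-0.996) or without haemoglobin, mitochondrial and ribosomal genes (-0.995), and the *Igfbp6* call without the cell filter (0.99). Without the forelimb or the hindlimb library the limb has 1 library, which is then assumed to vary as the penis libraries do, here and below. Because fewer cells of a type and less RNA per cell cannot be told apart in sums over all cells, the levels below are given type by type. Mesenchyme held 59.0 to 81.9% of the UMIs of each of the 10 genes in the penis libraries and 43.2 to 79.5% in the limb libraries. It held 50.6 to 61.6% of all UMIs.

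**Figure D1:**
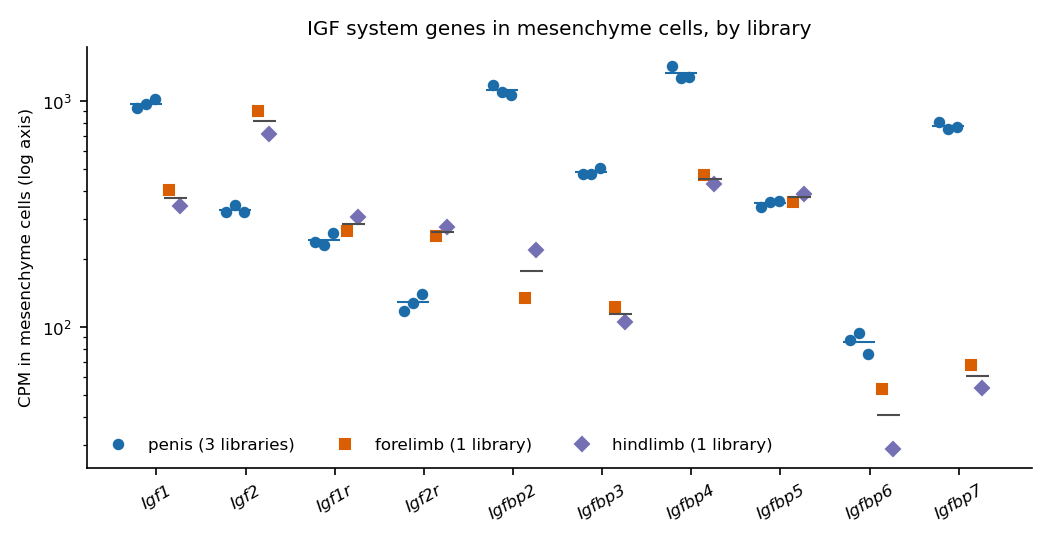
Levels of the 10 genes in mesenchyme cells, in CPM on a log axis, with 1 point for each library and a bar at the mean of the 3 penis or 2 limb libraries. Levels are to be compared within a gene. The penis points lie above both limb points for *Igf1*, *Igfbp2*, *Igfbp3*, *Igfbp4*, *Igfbp6* and *Igfbp7*, and below both for *Igf2*, *Igf1r* and *Igf2r*.

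*Igf1* encodes the growth hormone-responsive ligand (GRCm38, chr10:87858265-87937042, forward strand). In mesenchyme it stood at 934, 972 and 1019 CPM in the penis libraries, at 403 CPM in forelimb and 343 CPM in hindlimb. All 3 penis libraries were above both limb libraries, with a log2 fold change of 1.36 ± 0.09 (SE, n = 3 and 2, edgeR adjusted p = 1.57e-06). *Igf2*, the ligand of fetal growth (chr7:142650766-142666816, reverse strand), showed the opposite order. It stood at 321, 348 and 323 CPM in the penis, 908 in forelimb and 716 in hindlimb. The log2 fold change was -1.32 ± 0.10 (SE, n = 3 and 2, edgeR adjusted p = 5.04e-06). The antisense gene *Igf2os* overlaps *Igf2*, as *Igf1os* overlaps *Igf1*. The sources used here do not state how the counting treated strand, so reads of such pairs may not be fully told apart.

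The receptors were both lower in penis mesenchyme, and only *Igf2r* passed the call. *Igf1r*, the signalling receptor (chr7:67952827-68233668, forward strand), stood at 238, 230 and 260 CPM in the penis, 266 in forelimb and 307 in hindlimb. These groups did not overlap, but the difference was small, at -0.26 ± 0.07 on the log2 scale (SE, n = 3 and 2). Its edgeR adjusted p was 0.00897. *Igf2r*, the clearance receptor for IGF2 (chr17:12682406-12769664, reverse strand), stood at 118, 128 and 140 CPM in the penis, 252 in forelimb and 276 in hindlimb. The log2 fold change was -1.06 ± 0.07 (SE, n = 3 and 2, edgeR adjusted p = 1.78e-06). This call was lost without penis library 1, at -0.998, and with cells thinned to 2000 UMIs, at -0.91. That setting left out shallower cells and gated the others anew on the thinned counts, so depth and gate membership changed together. *Airn*, the imprinted antisense gene, overlaps *Igf2r* on the other strand.

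Of the binding proteins, *Igfbp7* and *Igfbp2* had the largest differences in mesenchyme. *Igfbp7* encodes a secreted protein that binds IGFs weakly and is abundant in vessel walls (chr5:77349240-77408041, reverse strand). *Polr2b* and *Gm34648* overlap it on the other strand, with the same limit on strand as above. It stood at 807, 751 and 767 CPM in the penis, 67.7 in forelimb and 53.5 in hindlimb. The log2 fold change was 3.65 ± 0.12 (SE, n = 3 and 2, edgeR adjusted p = 2.92e-08), so the penis libraries lay far above both limb libraries. *Igfbp2*, whose product favours IGF2 as ligand (chr1:72824503-72852474, forward strand), stood at 1176, 1103 and 1065 CPM in the penis, 134 in forelimb and 218 in hindlimb. The log2 fold change was 2.64 ± 0.18 (SE, n = 3 and 2, edgeR adjusted p = 2.08e-06). The limb libraries differed from each other more for *Igfbp2* than the penis libraries did.

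*Igfbp5* encodes a binding protein that attaches to bone and extracellular matrix (chr1:72857932-72874884, reverse strand). It was the 1 binding protein gene that was not called in mesenchyme, at 341, 358 and 362 CPM in the penis, 359 in forelimb and 389 in hindlimb. The groups overlapped, and the log2 difference was -0.10 ± 0.06 (SE, n = 3 and 2, edgeR adjusted p = 0.159). *Igfbp5* and *Igfbp2* are neighbours whose 3′ ends face each other across 5457 bases. The promoters of this pair (for *Igfbp2* the first of the 2 that RefSeq lists), which differed in response, are shown with that of *Igfbp7*, which had the largest difference. Each is the 250 bases before the start of the RefSeq transcript on GRCm38.p6, 5′ to 3′ on the gene's strand. Capitals mark matches on either strand to GGGCGG, known as the core of the GC box. They also mark TATAAA, the usual form of the box bound by the general transcription machinery, and its variant form with the letters TTTAAA, on either strand. The last motif searched was AGAACA, which occurs in sites of steroid receptors, and no other letters were searched.
Igfbp2, chr1:72824230-72824479, forward strand: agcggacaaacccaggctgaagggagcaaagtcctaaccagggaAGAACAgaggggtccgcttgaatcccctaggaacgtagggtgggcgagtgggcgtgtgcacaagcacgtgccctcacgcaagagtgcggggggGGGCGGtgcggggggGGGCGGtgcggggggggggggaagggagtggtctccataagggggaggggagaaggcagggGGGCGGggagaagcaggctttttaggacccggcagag
Igfbp5, chr1:72874866-72875115, reverse strand: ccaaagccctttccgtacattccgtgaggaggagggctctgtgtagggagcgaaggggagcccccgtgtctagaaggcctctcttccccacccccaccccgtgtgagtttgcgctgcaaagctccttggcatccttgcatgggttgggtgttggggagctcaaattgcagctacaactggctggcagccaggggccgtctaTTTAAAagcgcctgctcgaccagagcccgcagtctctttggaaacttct
Igfbp7, chr5:77408046-77408295, reverse strand: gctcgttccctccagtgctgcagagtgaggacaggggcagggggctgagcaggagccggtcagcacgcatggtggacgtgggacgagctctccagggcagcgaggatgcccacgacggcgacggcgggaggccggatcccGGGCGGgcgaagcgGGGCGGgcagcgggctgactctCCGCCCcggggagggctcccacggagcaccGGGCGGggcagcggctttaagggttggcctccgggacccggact

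The *Igfbp2* window shown held 3 copies of GGGCGG and 1 of AGAACA, while its second promoter window (chr1:72825137-72825386) held none of the 4 motifs, the *Igfbp7* window 4 copies of GGGCGG and no other, and the *Igfbp5* window 1 TTTAAA. Over 32851 mouse promoter windows of the same length, 32.7% held GGGCGG, 12.4% TATAAA, 12.1% TTTAAA and 16.1% AGAACA. A match describes the letters and is not evidence of a bound factor.

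The other 3 binding protein genes were also higher in penis mesenchyme. *Igfbp3* encodes the main carrier of IGFs in blood (chr11:7206086-7213923, reverse strand). It stood at 474, 477 and 508 CPM in the penis against 123 in forelimb and 105 in hindlimb, a log2 fold change of 2.07 ± 0.08 (SE, n = 3 and 2, edgeR adjusted p = 1.02e-07). *Igfbp4* encodes an inhibitory binding protein that pappalysins cut (chr11:99041244-99054392, forward strand). It stood at 1428, 1267 and 1281 CPM in the penis against 469 and 430, a log2 fold change of 1.54 ± 0.09 (SE, n = 3 and 2, edgeR adjusted p = 7.5e-07). *Igfbp6*, whose product prefers IGF2 (chr15:102144362-102149511, forward strand), had the lowest levels, at 87.7, 93.6 and 75.5 CPM in the penis, 52.9 in forelimb and 28.8 in hindlimb. Its log2 fold change was 1.04 ± 0.22 (SE, n = 3 and 2, edgeR adjusted p = 0.00239). The *Igfbp6* call was lost without penis library 2, at 0.97, and without the hindlimb library, at 0.66.

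The share of mesenchyme cells with a UMI, after depth was set equal, ordered the groups as CPM did for 8 of the 10 genes. Median depths were 10238.5, 9709 and 9056 UMIs per penis mesenchyme cell, 5379.5 in forelimb and 6026 in hindlimb. Each cell was thinned to 2000 UMIs, and shallower cells were left out. For these shares the gates of the full counts were kept. *Igfbp7* was then detected in 71.6, 69.2 and 70.2% of penis mesenchyme cells, 12.1% of forelimb and 9.69% of hindlimb cells. Unthinned, its mean share was 93.7% in the penis and 22.9% in the limb. Macrophages, which are not known as a source of this protein, had it in 9.25, 10.5 and 9.0% of penis cells and 1.74 and 1.15% of limb cells at the same thinned depth, with unthinned shares of 18.2, 22.1, 18.6, 5.13 and 3.82% and median depths of 6099 to 8563 UMIs. *Igf2* was detected in 32.6, 32.9 and 32.7% of thinned penis mesenchyme cells, 71.9% of forelimb and 66.8% of hindlimb cells (unthinned means 65.1 and 88.2%). *Igf1* reached 59.2, 59.8 and 60.3% in the penis, 32.1% in forelimb and 31.1% in hindlimb cells (unthinned means 76.7 and 44.6%). Over the 10 genes, thinned shares in all 3 penis libraries were above both limb libraries for 6 and below both for 3. The exceptions were *Igfbp5* and *Igf1r*. *Igfbp5*, whose CPM overlapped, was detected in 28.3, 28.8 and 28.8% of thinned penis cells, 34.3% of forelimb and 37.1% of hindlimb cells. *Igf1r* overlapped, and its unthinned share, higher in the penis, went against its CPM. No test was run on shares, since 3 against 2 libraries cannot go below an exact permutation p of 0.1.

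Of 37 other genes of the pathway, 35 could be tested in mesenchyme, and 8 were higher and 5 lower in the penis, where 25.2% of all genes were called. Of 8 proteases and inhibitors tested 5 were higher and 1 lower, and none of the 4 genes of the growth hormone axis was called. Of 6 tested in a group of other insulin and IGF family genes and the noncoding neighbours of *Igf2*, 3 were lower and none higher. They were *Ins2* and the neighbours *H19* and *Igf2os*. *Ins2* stood at 0.0956, 0.0241 and 0.0315 CPM in the penis and 0.316 and 0.319 in the limb. Its penis levels rested on very few UMIs, near the floor of the counts. *H19* was at 329, 356 and 339 CPM in the penis and 986 and 946 in the limb. *Igf2os* was at 1.55, 1.79 and 1.92 CPM in the penis and 6.91 and 6.87 in the limb. Of 17 signalling genes, 3 were higher and 1 lower. *Irs4*, which encodes an adaptor of the insulin and IGF1 receptors, stood at 7.65, 8.04 and 10.6 CPM in the penis, 0.220 in forelimb and 0.292 in hindlimb (log2 fold change 5.05 ± 0.21, SE). *Pappa2* encodes a pappalysin that cuts IGFBP3 and IGFBP5. It stood at 191, 195 and 196 CPM in the penis, 29.3 in forelimb and 24.1 in hindlimb (log2 fold change 2.84 ± 0.09, SE). Over all cells 11 of 37 pathway genes were higher and 4 lower, where 24.5% of all genes were called, with *Irs4* at 5.24 ± 0.19 and *Pappa2* at 2.85 ± 0.10 on the log2 scale (SE).

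The comparison was repeated in each other type to see how far the mesenchyme pattern extended. *Igfbp7* and *Igfbp2* were higher and *Igf2* lower in the penis in every one of the 8 other types tested, and each of these differences kept its direction with any 1 library left out. Every one of these calls held without any 1 library, except that of *Igf2* in the tendon gate. Some of these genes stood near the share of summed mesenchyme markers in a type. In penis macrophages *Igfbp2* was at 13.2 to 16.4% of its mesenchyme level, and the markers at 12.2 to 13.9%. Others stood above it, as *Igfbp7* at 182 to 191% in penis endothelial cells. In the mural, cartilage and tendon gates of the penis the markers were at 74.8 to 116%. The part of free or mesenchyme RNA was not tested. The genes other than *Igfbp7*, *Igfbp2* and *Igf2* depended on the type. *Igfbp5* was higher in some types and lower in others.

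**Figure D2:**
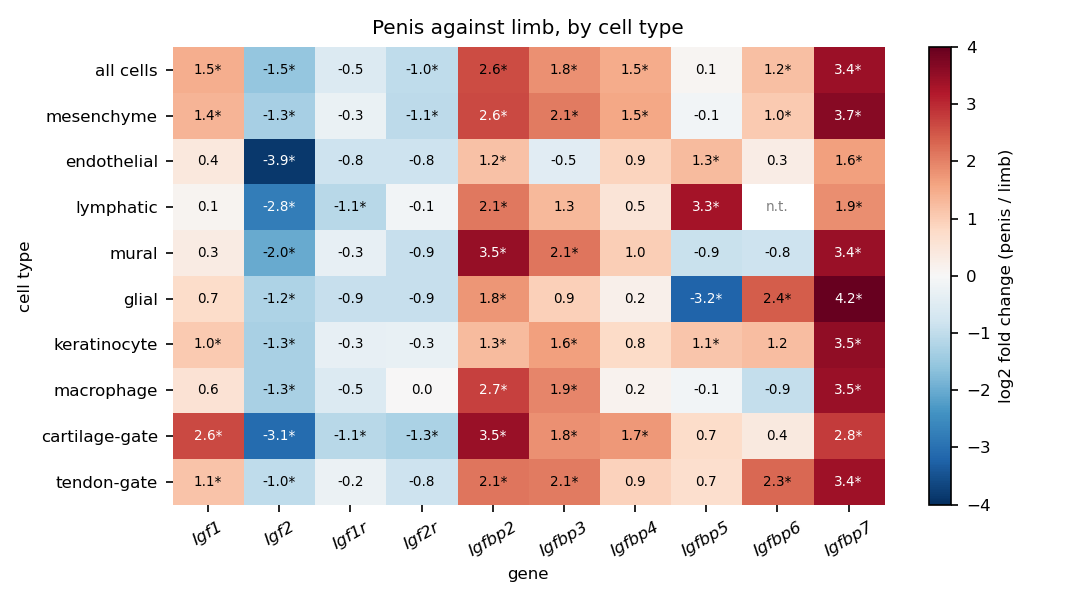
Log2 fold changes of penis over limb for each gene (columns) in all cells and in 9 cell types (rows), from red for higher in the penis to blue for lower, with an asterisk where the gene was called and n.t. where it was not tested. The *Igfbp7* and *Igfbp2* columns are red and the *Igf2* column blue in every row, while the *Igfbp5* column runs from -3.20 in glial to 3.34 in lymphatic endothelial cells.

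In endothelial cells, which line blood vessels, 4 of the 10 genes were called, 3 higher and 1 lower, where 13.0% of all genes were called. *Igf2* stood at 53.5, 44.6 and 55.0 CPM in the penis against 776 in forelimb and 687 in hindlimb. The log2 fold change of -3.86 ± 0.10 (SE, n = 3 and 2, edgeR adjusted p = 2.08e-13) was the lowest of *Igf2* in any type. *Igfbp7* was high in both tissues, at 1544, 1390 and 1397 CPM in the penis, 499 in forelimb and 425 in hindlimb (1.63 ± 0.09, SE). *Igfbp5*, at 286, 215 and 291 CPM in the penis, 122 in forelimb and 95.8 in hindlimb, was higher in the penis (1.26 ± 0.13, SE), as was *Igfbp2* (1.18 ± 0.10, SE). The *Igfbp5* call was lost with the gate at 30% of the marker list, at 0.55. *Igfbp3* was not called. Its limb levels of 319 and 430 CPM overlapped the penis levels of 375, 236 and 208 CPM, and the log2 difference was -0.46 ± 0.18 (SE). Summed mesenchyme markers stood at 13.2 to 16.3% of the mesenchyme level in penis endothelial cells, where *Igf2* stood at 12.8 to 17.0% and *Igfbp2* at 14.3 to 16.6% of theirs. In the limb the marker sum was at 25.2 and 22.9%, and *Igf2* at 85.5 and 95.8%. The part of free or mesenchyme RNA in these values was not tested.

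In the lymphatic endothelial gate 5 of 9 genes tested were called, 3 higher and 2 lower, where 8.47% of all genes were called. The median penis cell of this gate carried 3 lymphatic and 10 blood endothelial markers. The medians were 6 and 6 in forelimb and 5 and 7 in hindlimb. *Igfbp5* was at 364, 669 and 289 CPM in the penis and at 42.4 CPM in both limb libraries, a log2 fold change of 3.34 ± 0.36 (SE, n = 3 and 2, edgeR adjusted p = 5.75e-05). The penis libraries spread widely for *Igf2* here, at 59.0, 136 and 267 CPM, and still lay below 1227 CPM in forelimb and 817 in hindlimb. *Igf2* had a log2 fold change of -2.76 ± 0.38, *Igfbp2* of 2.12 ± 0.33 and *Igfbp7* of 1.85 ± 0.16 (SE). *Igf1r* was lower in the penis (-1.11 ± 0.16, SE), and that call was lost without the forelimb library, at -0.98. *Igfbp6* was below the filter on low counts. *Igfbp3* was not called (1.3 ± 0.37, SE) but passed without penis library 1, at 1.55, and without the hindlimb library, at 2.05. Summed mesenchyme markers stood at 8.38 to 26.1% of the mesenchyme level in these cells and *Igfbp2* at 9.13 to 31.6% of its own, a part that was not tested.

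In the mural gate, for pericytes and smooth muscle of vessels, 4 genes were called, 3 higher and 1 lower, where 15.8% of all genes were called. Its marker *Myh11* stood at 385, 507 and 566 CPM in the penis against 42.0 and 32.6 in the limb. The marker *Rgs5* was at 913, 840 and 1189 CPM in the penis against 243 and 225 in the limb. Others were closer, with *Kcnj8* at 113, 102 and 124 against 95.3 and 105 CPM. *Cspg4* was at 78.5, 79.5 and 90.2 against 84.5 and 89.4 CPM. The gate thus differed in make-up between the tissues. *Igfbp7* stood at 1235, 1224 and 1357 CPM in the penis, 115 in forelimb and 108 in hindlimb (log2 fold change 3.45 ± 0.12, SE). *Igfbp2* was at 790, 960 and 956 CPM in the penis and 54.1 and 101 in the limb (3.49 ± 0.21, SE). *Igfbp3* was higher (2.15 ± 0.13) and *Igf2* lower (-2.03 ± 0.15, SE) in the penis. Mural-gate cells carried a median of 8 of 10 mesenchyme markers, or 7 in penis library 3. Their summed mesenchyme markers stood at 74.8 to 91.1% of the mesenchyme level in the same library. The part of mesenchyme RNA or cells in these values was not tested. Without single libraries 4 further genes passed the call. These were *Igf2r* at -1.03 without the forelimb library, *Igfbp4* at 1.05 without penis library 3, *Igfbp5* at -1.06 without penis library 1 and *Igfbp6* at -1.38 without the hindlimb library. With cells thinned to 2000 UMIs *Igfbp5* was called lower at -2.92 and *Igf2r* at -1.38. *Igf2r* also passed with the gate at 30% (-1.04) and without the cell filter (-1.04), as did *Igfbp4* (1.22 and 1.04).

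Glial cells, the Schwann cells and their precursors of nerves, showed a called fall of *Igfbp5*. It stood at 87.4, 47.5 and 77.4 CPM in the penis, 656 in forelimb and 684 in hindlimb, a log2 fold change of -3.20 ± 0.16 (SE, n = 3 and 2, edgeR adjusted p = 8.64e-09). In all, 5 genes were called in glial cells, 3 higher and 2 lower, where 16.0% of all genes were called. *Igfbp7* was at 709, 693 and 690 CPM in the penis against 39.4 and 37.1 in the limb. This log2 fold change of 4.23 ± 0.12 (SE, edgeR adjusted p = 4.38e-11) was the highest of *Igfbp7* in any type. *Igfbp6* was higher (2.42 ± 0.43), *Igfbp2* higher (1.75 ± 0.29) and *Igf2* lower (-1.22 ± 0.17, SE) in the penis. The *Igfbp6* levels were low, at 22.9, 17.4 and 31.3 CPM in the penis, 2.19 in forelimb and 6.81 in hindlimb. The *Igf2* call was lost with the gate at 30%, at -0.28, and the *Igfbp2* call with DESeq2, at 1.75. With the gate at 30% *Igf1* (1.40), *Igfbp3* (2.15) and *Igfbp4* (1.26) were called higher. Summed mesenchyme markers stood at 26.3 to 39.4% of the mesenchyme level in glial cells. *Igf2* stood at 14.7 to 24.3%, *Igfbp2* at 8.48 to 26.0% and *Igfbp7* at 58.2 to 92.4% of theirs. *Igfbp6* stood at 26.1, 18.6 and 41.5% of its mesenchyme level in the penis, 4.14% in forelimb and 23.6% in hindlimb. The part of free or mesenchyme RNA in the glial values was not tested. Further genes passed the call without single libraries: *Igf1r* at -1.09 and *Igf2r* at -1.001 without the forelimb library, and *Igfbp3* at 1.11 without penis library 3 and 1.20 without the forelimb library.

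In keratinocytes, the cells of surface epithelium, 6 genes were called, 5 higher and 1 lower, where 11.1% of all genes were called. *Igfbp7* stood at 147, 139 and 152 CPM in the penis, 16.9 in forelimb and 9.26 in hindlimb (log2 fold change 3.54 ± 0.21, SE). *Igfbp5* stood at 379, 388 and 535 CPM in the penis, 233 in forelimb and 173 in hindlimb (1.11 ± 0.17, SE), a call lost without penis library 3, at 0.97, and without the hindlimb library, at 0.89. *Igf1* at 172, 202 and 126 CPM was above 81.1 and 85.2 CPM in the limb (1.03 ± 0.20, SE), a call that did not hold in 4 of the 5 fits with 1 library left out, where it fell as low as 0.84 without penis library 2. *Igfbp3* (1.65 ± 0.17) and *Igfbp2* (1.27 ± 0.17) were higher and *Igf2* (-1.30 ± 0.14, SE) lower in the penis. *Igfbp4* passed without the forelimb library, at 1.10. Other settings ended the calls of *Igfbp5* (0.77 with the gate at 30%), *Igf1* (0.97 with the gate at 50%, 0.53 without the cell filter) and *Igfbp3* (1.04 with cells thinned to 2000 UMIs). Summed mesenchyme markers stood at 16.5 to 25.7% of the mesenchyme level in this gate. *Igfbp7* stood at 17.3 to 24.9%, *Igfbp3* at 19.4 to 31.3% and *Igf1* at 12.3 to 24.9% of theirs. The other called genes stood above the marker sum, *Igf2* at 32.3 to 37.1%, *Igfbp2* at 44.3 to 48.9% in the penis and 195 and 83.8% in the limb, and *Igfbp5* at 109 to 148% in the penis and 64.9 and 44.4% in the limb. The part of free or mesenchyme RNA in the keratinocyte values was not tested.

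In the macrophage gate 4 genes were called, 3 higher and 1 lower, where 12.6% of all genes were called. *Igfbp7* stood at 88.0, 121 and 110 CPM in the penis, 13.1 in forelimb and 6.17 in hindlimb (log2 fold change 3.46 ± 0.24, SE). *Igfbp2* (2.75 ± 0.14) and *Igfbp3* (1.94 ± 0.22) were higher and *Igf2* (-1.29 ± 0.14, SE) lower. The *Igfbp3* call was lost with cells thinned to 2000 UMIs, at 1.297. In this gate all 10 mesenchyme markers were above 0 in every library, and their sum stood at 12.2 to 14.9% of the mesenchyme level of the same library. *Igf2*, *Igfbp2*, *Igfbp3*, *Igfbp5* and *Igfbp7* stood at 7.96 to 19.4% of theirs. The part of free or mesenchyme RNA in the macrophage differences was not tested. *Igf1*, which macrophages are known to make, stood at 26.1 to 35.3% of its mesenchyme level in the penis and at 52.7 and 61.6% in the limb, above the marker sum in every library, and was not called (0.58 ± 0.14, SE).

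Cartilage-gate cells had 8 calls among the 10 genes, 5 higher and 3 lower, where 17.4% of all genes were called. Limb cells of this gate were led by *Col2a1* and *Acan*, which encode the main collagen and proteoglycan of cartilage. Penis cells were not, and their summed mesenchyme markers stood at 104 to 114% of the mesenchyme level against 57.8 and 52.9% in the limb, so the gate held unlike cells in the 2 tissues. *Igf1* stood at 645, 468 and 661 CPM in the penis, 97.4 in forelimb and 90.6 in hindlimb (log2 fold change 2.65 ± 0.14, SE). *Igf2* stood at 126, 129 and 178 CPM in the penis, 1372 in forelimb and 1070 in hindlimb (-3.09 ± 0.15, SE). Both ligands thus differed by more than in mesenchyme. *Igfbp2* (3.45 ± 0.21), *Igfbp7* (2.79 ± 0.20), *Igfbp3* (1.81 ± 0.20) and *Igfbp4* (1.73 ± 0.12) were higher, and *Igf1r* (-1.10 ± 0.10) and *Igf2r* (-1.25 ± 0.10, SE) lower. With cells thinned to 2000 UMIs both receptor calls were lost, at -0.55 and -0.94. *Igf1r* was also lost with the gate at 30% (-0.92) and *Igfbp3* with the gate at 50% (0.96). *Igfbp5* passed the call with the gate at 50% (1.57), when thinned (1.20) and with cells of several gates assigned (1.077), and *Igfbp6* without the cell filter (1.26). Tendon-gate cells had 6 calls, 5 higher and 1 lower, where 18.2% of all genes were called. Their summed mesenchyme markers stood at 114 to 116% of the mesenchyme level in the penis and at 96.7 and 91.2% in the limb. *Igfbp6* stood at 168, 137 and 118 CPM in the penis, 40.1 in forelimb and 17.2 in hindlimb there (2.29 ± 0.25, SE). *Igf2* was lower by a margin that did not survive without penis library 1, at -0.95, or without the forelimb library, at -0.75 (-1.01 ± 0.11, SE, over all libraries). *Igfbp4* passed without the forelimb library, at 1.13. The *Igf2* call of the tendon gate was also lost when thinned (-0.96) and with the gate at 30% (-0.96) or 50% (-0.73), and its *Igf1* call when thinned (0.27) and with the gate at 50% (0.46).

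Other pathway genes were called in both directions in every type. Their counts stand against the share of all genes called in the same type, from 8.47% in lymphatic to 18.2% in tendon-gate cells. Of those tested, 6 of 31 were higher and 3 lower in endothelial, 3 and 2 of 25 in lymphatic, 5 and 5 of 32 in mural, 4 and 5 of 29 in glial, and 6 and 3 of 29 in keratinocyte gates. In macrophages 5 of 26 were higher and 1 lower, in cartilage-gate cells 6 and 4 of 31, and in tendon-gate cells 5 and 4 of 32. *Pappa2* was among the 2 largest changes in glial (log2 fold change 2.38 ± 0.44), keratinocyte (3.26 ± 0.39), macrophage (2.64 ± 0.34) and tendon-gate cells (2.68 ± 0.12, SE), where *Pappa*, its relative, was the other in macrophages (1.94 ± 0.48, SE). *Pappa2* stood at 14.3, 31.9 and 28.7 CPM in penis macrophages, 31.8, 14.6 and 34.4 in glial cells and 26.6, 31.8 and 21.2 in keratinocytes. Summed mesenchyme markers stood at 12.2 to 14.9%, 26.3 to 39.4% and 16.5 to 25.7% of the mesenchyme level there, respectively. In penis mesenchyme *Pappa2* was at 191, 195 and 196 CPM. Macrophage *Pappa* rested on 10, 17 and 20 UMIs in the penis and 9 and 18 in the limb. The part of free or mesenchyme RNA was not tested.

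In endothelial cells *Grb14*, which encodes an inhibitory adaptor of the insulin receptor, stood at 139, 117 and 146 CPM in the penis against 4.98 and 4.99 in the limb (4.72 ± 0.20, SE). *H19*, the imprinted noncoding neighbour of *Igf2*, stood at 51.2, 33.9 and 60.1 CPM against 820 and 999 (-4.26 ± 0.15, SE). *Grb14* (3.96 ± 0.28) and the insulin receptor gene *Insr* (2.09 ± 0.19, SE) led in lymphatic cells. *H19* (-3.51 ± 0.15) and *Igf2os* (-4.33 ± 0.50, SE) fell along with *Igf2* in cartilage-gate cells, as *Igf2os* did in the mural gate (-3.62 ± 0.58, SE). *Igf2os*, which overlaps *Igf2*, had 0, 2 and 1 UMIs in penis cartilage-gate cells, against 136 and 210 in the limb. In the mural gate it had 2, 3 and 1 UMIs in the penis and 30 and 11 in the limb. *Stc1*, which encodes a pappalysin inhibitor, was lower in penis glial cells (-2.81 ± 0.58, SE), on 4, 1 and 2 UMIs in the penis libraries and 10 and 15 in the limb libraries. In tendon-gate cells *Irs4* stood at 13.2, 21.0 and 14.6 CPM in the penis (52, 77 and 46 UMIs), with 2 UMIs in forelimb and 1 in hindlimb cells. Mural-gate cells gave 20, 15 and 4 UMIs of *Irs4* in the penis and 0 and 1 in the limb. *Igfbpl1*, a gene related to the binding proteins, had 32, 45 and 28 UMIs in penis keratinocytes and 0 in both limb libraries.

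Whether the penis to limb difference of a gene was itself different in a given type was tested as an interaction against mesenchyme, with the library as a block. The value is the log2 fold change in the type less that in mesenchyme. In endothelial cells 5 of the 10 genes were called, 1 higher and 4 lower, where 8.22% of all genes were called. *Igf2* fell further than in mesenchyme (-2.56 ± 0.25, edgeR adjusted p = 2.42e-10), and the excess of *Igfbp7* (-2.04 ± 0.16) and *Igfbp2* (-1.51 ± 0.29, SE) was smaller. *Igfbp3*, higher in penis mesenchyme and not called in endothelial cells, differed by -2.57 ± 0.28 (SE). *Igfbp5* went the other way (1.35 ± 0.31, SE), a call lost without the forelimb library, at 1.60, or the hindlimb library, at 1.15, and *Igf1* passed without penis library 3, at -1.01. The *Igfbp2* call was lost when thinned, at -0.96, and the *Igfbp5* call with the gate at 30%, at 0.74. The lymphatic gate, unlike in make-up between the tissues, also had 5 calls, 1 higher and 4 lower, where 5.77% of all genes were called. *Igfbp5* was at 3.40 ± 0.42 (edgeR adjusted p = 1.38e-07), *Igfbp7* at -1.90 ± 0.19 and *Igf2* at -1.47 ± 0.27 (SE). *Igf1* (-1.31 ± 0.27) and *Igfbp4* (-1.08 ± 0.15, SE) were called too, and without the hindlimb library their calls were lost at -1.14 and -0.97. They were also lost at -0.997 with cells of several gates assigned and at -0.94 without the cell filter, respectively. Leaving out 1 library gave 2 more calls, *Igf1r* at -1.09 without the hindlimb library and *Igf2r* at 1.03 without penis library 3 or 1.01 without the forelimb library.

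Glial cells had 2 calls, where 9.31% of all genes were called. Both *Igfbp5* (-3.10 ± 0.32, edgeR adjusted p = 1.15e-09) and *Igfbp4* (-1.36 ± 0.16, SE) had lower values than in mesenchyme, the latter lost without the hindlimb library, at -0.98, and with the gate at 30%, at -0.20. Keratinocytes had 2 calls, where 7.68% of all genes were called. *Igfbp5* was higher (1.21 ± 0.31) and *Igfbp2* lower (-1.42 ± 0.26, SE). The *Igfbp5* call was lost without the forelimb or the hindlimb library, at 1.44 and 0.92, and the *Igfbp2* call without the forelimb library, at -0.84. With the gate at 30% (0.96) or DESeq2 (1.19) *Igfbp5* was lost too, as was *Igfbp2* when thinned (-0.88). Macrophages had 1 call, *Igfbp4* at -1.45 ± 0.14 (SE, edgeR adjusted p = 4.05e-10), where 7.83% of all genes were called. *Igfbp4* stood at 342, 319 and 329 CPM in penis macrophages and at 314 and 286 in limb macrophages. *Igf2r* was just under the limit in macrophages (1.00 ± 0.14, SE) and passed without penis library 2, at 1.02, or the forelimb library, at 1.20, and *Igfbp6* passed without penis library 3, at -2.37.

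Cartilage-gate cells had 2 calls, *Igf1* (1.24 ± 0.21) and *Igf2* (-1.82 ± 0.24, SE), where 7.04% of all genes were called, and *Igfbp7* passed without the hindlimb library, at -1.09. Tendon-gate cells had 1, *Igfbp6* (1.295 ± 0.26, SE), where 2.30% of all genes were called, and it was lost without the forelimb or the hindlimb library, at 1.45 and 1.13, with DESeq2, at 1.34, and without the cell filter, at 1.21. The mural gate had 2, *Igf1* (-1.03 ± 0.21) and *Igfbp6* (-1.78 ± 0.30, SE), where 2.34% of all genes were called. Its *Igf1* call was lost without penis library 3 (-0.95), without the forelimb library (-0.95) and without the hindlimb library (-1.08), and its *Igfbp6* call without the forelimb library (-1.33). The *Igf1* call was lost under 7 other settings, at -0.99 to -0.52, and the *Igfbp6* call with DESeq2 (-1.70), while with cells thinned to 2000 UMIs *Igfbp6* had the other sign and no call (3.23).

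**Figure D3:**
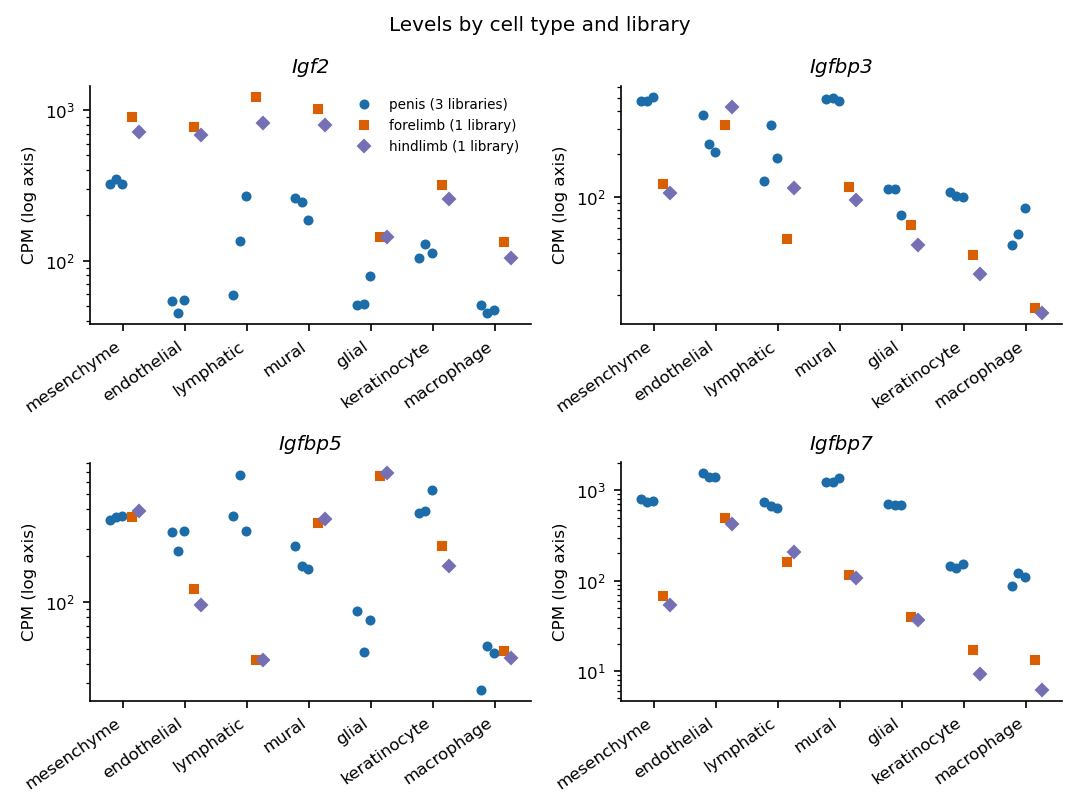
Levels of *Igf2*, *Igfbp3*, *Igfbp5* and *Igfbp7* in 7 cell types, in CPM on a log axis, with 1 point for each library. The *Igf2* points of the penis fall to about 50 CPM in endothelial cells while the limb points stay near those of limb mesenchyme, and the *Igfbp5* points change sides from lymphatic to glial cells.

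Each type was then compared with mesenchyme of the same libraries, to see which cells carried the genes within a tissue. In the penis no gene was called higher than in mesenchyme in any of the 6 types tested. Endothelial cells had 4 genes lower, where 30.4% of all genes were called. Lymphatic cells had 5 lower, where 25.8% were called, and without penis library 1 the count was 3, with *Igf2* at -0.75 and *Igfbp3* at -0.98 no longer called. *Igf2* was also lost without penis library 2, at -0.97. Glial cells had 8 lower, where 24.1% were called, keratinocytes 6 lower, where 30% were called, and macrophages 9 lower, where 40.8% were called. With the gate at 30% of its list the glial count was 4, without *Igf2* (-0.60), *Igf2r* (-0.75), *Igfbp5* (-0.72) and *Igfbp6* (-0.73), and keratinocytes lost *Igf2* (-0.89). The mural gate had 0 calls by edgeR, with 8 genes at an unadjusted p under 0.05 and 0 calls by DESeq2, where 5.32% of all genes were called. Without penis library 1 it had 2 calls, *Igfbp5* at -1.10 and *Igfbp6* at -1.18, and with the gate at 50% of its list or with cells thinned to 2000 UMIs it had 7. Of these, *Igfbp7* (1.06 and 1.17) and, with the gate at 50%, *Igf2r* (1.004) were higher than in mesenchyme, and the others lower. *Igfbp7* in endothelial cells was at 0.97 ± 0.07 (SE) and passed the call without penis library 3 (1.00), without the cell filter (1.11) and with cells of several gates assigned (1.07), while *Igfbp3* there was called lower only without penis library 1, at -1.11. *Igf1r* was not called lower in any penis type, with log2 differences from -0.87 in macrophages to 0.04 in the mural gate, except in macrophages without the filter on low counts, at -1.04.

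In the limb, 2 binding protein genes stood above mesenchyme in vessels. Endothelial cells had 2 genes higher and 4 lower, where 19.8% of all genes were called. *Igfbp7*, at 499 and 425 CPM against 67.7 and 53.5 CPM in mesenchyme, had a log2 difference of 2.96 ± 0.15 (SE, n = 2 libraries, edgeR adjusted p = 1.7e-13). *Igfbp3*, at 319 and 430 CPM against 123 and 105 CPM, had one of 1.75 ± 0.20 (SE, n = 2 libraries, edgeR adjusted p = 9.93e-08). In lymphatic cells 1 gene, *Igfbp7* (1.66 ± 0.19, SE), was higher and 5 were lower, where 16.9% were called. Its call was lost with cells thinned to 2000 UMIs, at 0.51. *Igfbp5* was at 42.4 CPM in both libraries there, against 359 and 389 CPM in mesenchyme (-3.13 ± 0.23, SE).

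All other calls of the limb were lower than mesenchyme over all UMIs and with the gate at 40%. Under other settings some genes were called higher. In the mural gate these were *Igfbp7* (1.22 to 2.82 under 3 settings), *Igf2r* (1.21 when thinned) and *Igfbp6* (1.18 with the gate at 30%). *Igfbp5* was called higher in glial cells (1.31 when thinned, 1.04 with cells of several gates assigned). Glial cells had 7, where 11.4% of all genes were called, keratinocytes 7, where 19.9% were called, and macrophages 7, where 39.6% were called. Cartilage-gate cells had 4, where 11% were called, with *Igf1* at 97.4 and 90.6 CPM against 403 and 343 CPM in mesenchyme (-2.03 ± 0.16, SE). Mast cells had all 10 lower, where 35.1% were called, and 6 with the gate at 30%, where *Igf2r*, *Igfbp3*, *Igfbp6* and *Igfbp7* lost their calls. The mast *Igfbp6* call was also lost with DESeq2 (-1.06) and when thinned (-0.64). The mural gate had 1 lower, *Igfbp2* (-1.25 ± 0.25, SE), where 1.84% were called. That call was lost with DESeq2, at -1.19, and with the gate at 30%, at -0.88. Muscle cells had 4 lower, where 30.5% were called. *Igf1* had its lowest mean there, at 41.0 CPM in forelimb and 24.3 in hindlimb (-3.29 ± 0.18, SE), and *Igf1r* its highest, at 433 and 536 CPM. These levels overlapped those of mast cells for *Igf1* and of cartilage-gate cells for *Igf1r*. The *Igf1r* difference of 0.99 ± 0.10 (SE) lay just under the limit of the call and passed under 4 other settings, at 1.01 to 1.12, and *Igfbp3* passed there when thinned, at 1.16.

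**Figure D4:**
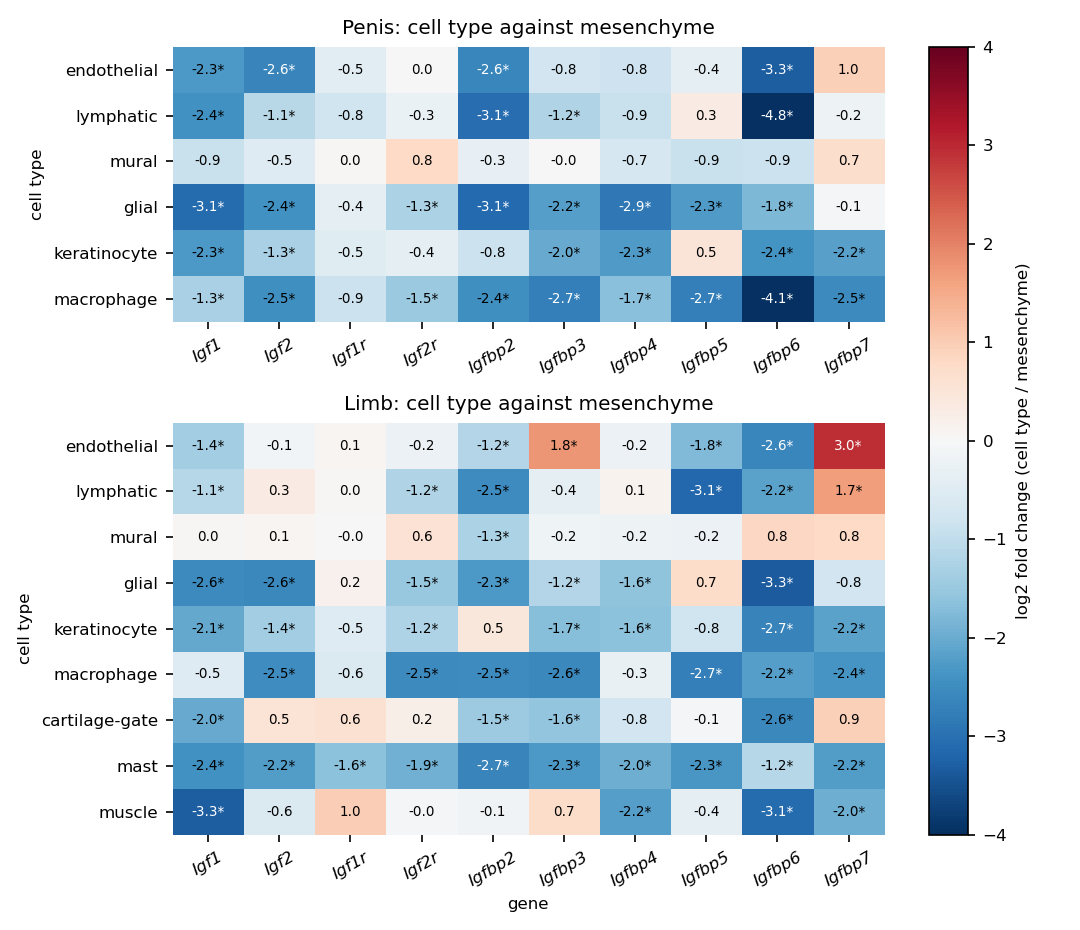
Log2 differences of each cell type from mesenchyme of the same tissue, for the penis (upper panel, 3 libraries) and the limb (lower panel, 2 libraries), with an asterisk where the gene was called. The cells with red and an asterisk are *Igfbp3* and *Igfbp7* in limb endothelial cells and *Igfbp7* in limb lymphatic cells.

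Levels were also ordered over types within a tissue. *Igf1* was highest in mesenchyme among 9 penis types, at 975 ± 42.5 CPM (SD, n = 3), clear of the tendon gate at 727 ± 21.6. In the limb its 3 highest types, the mural gate, mesenchyme and the tendon gate, overlapped. *Igf2* was highest in the penis tendon gate, at 395 ± 25.1 CPM (SD, n = 3), above mesenchyme at 331 ± 14.8, and in limb cartilage-gate cells, at 1221 ± 213 CPM (SD, n = 2), where each of the 5 highest types overlapped the next. *Igfbp7* was highest in endothelial cells in both tissues, where penis levels were 1444 ± 87.1 CPM (SD, n = 3) and limb levels 462 ± 52.4 CPM (SD, n = 2). *Igf2r* was highest in the mural gate in both, at 225 ± 22.1 and 412 ± 41.5 CPM. *Igfbp5* was highest in limb glial cells, at 670 ± 19.8 CPM (SD, n = 2), while in the penis only macrophages, at 42.3 ± 13.4 CPM, were lower than glial cells, at 70.8 ± 20.8 (SD, n = 3), and these overlapped.

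Within penis mesenchyme, cells that passed a gate for *Pi16* fibroblasts, a fibroblast type of the adventitia and fascia, numbered 1185, 1170 and 935. They had 3 of the 10 genes higher than other mesenchyme and none lower, where 7.68% of all genes were called. *Igfbp6* stood at 224, 234 and 189 CPM in these cells and at 17.6, 24.1 and 21.9 CPM in other mesenchyme, a log2 difference of 3.48 ± 0.06 (SE, n = 3 libraries, edgeR adjusted p = 3.39e-16). *Igf2* stood at 621, 702 and 631 CPM against 167, 173 and 178 CPM (2.03 ± 0.03, SE, edgeR adjusted p = 1.85e-17). *Igfbp5* stood at 623, 652 and 675 CPM against 196, 213 and 214 CPM (1.76 ± 0.02, SE, edgeR adjusted p = 4.02e-18). All 3 libraries showed each of these directions without overlap.

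The other genes of the 10 stayed within the limit of the call in *Pi16* fibroblasts over all libraries and UMIs. *Igfbp2* was at 681, 602 and 639 CPM against 1429, 1350 and 1266 CPM (-0.96 ± 0.03, SE), which passed at -1.001 without penis library 3, and *Igf1* and *Igfbp7* were at -0.33 ± 0.02 and -0.29 ± 0.02 on the log2 scale (SE). With cells thinned to 2000 UMIs *Igf1* and *Igfbp2* were both called lower, each at -1.42, and with the gate at 50% *Igfbp2* was, at -1.16. *Igfbp3* was at 0.63 ± 0.02 (SE). Of 33 other pathway genes tested, 3 were higher and none lower, where 7.68% of all genes were called. *H19* stood at 723, 800 and 750 CPM against 127, 137 and 145 CPM (2.59 ± 0.03, SE). *Htra3*, which encodes a secreted protease with an IGF binding protein domain, stood at 106, 113 and 106 CPM against 53.6, 50.9 and 47.9 CPM (1.20 ± 0.04, SE). In the limb, where no test was planned, the same gate gave *Igfbp6* at 173 CPM in forelimb and 122 in hindlimb against 23.7 and 15.5 CPM. *Igfbp5* did not separate the limb cells in that way, at 432 and 370 CPM against 341 and 392 CPM.

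**Figure D5:**
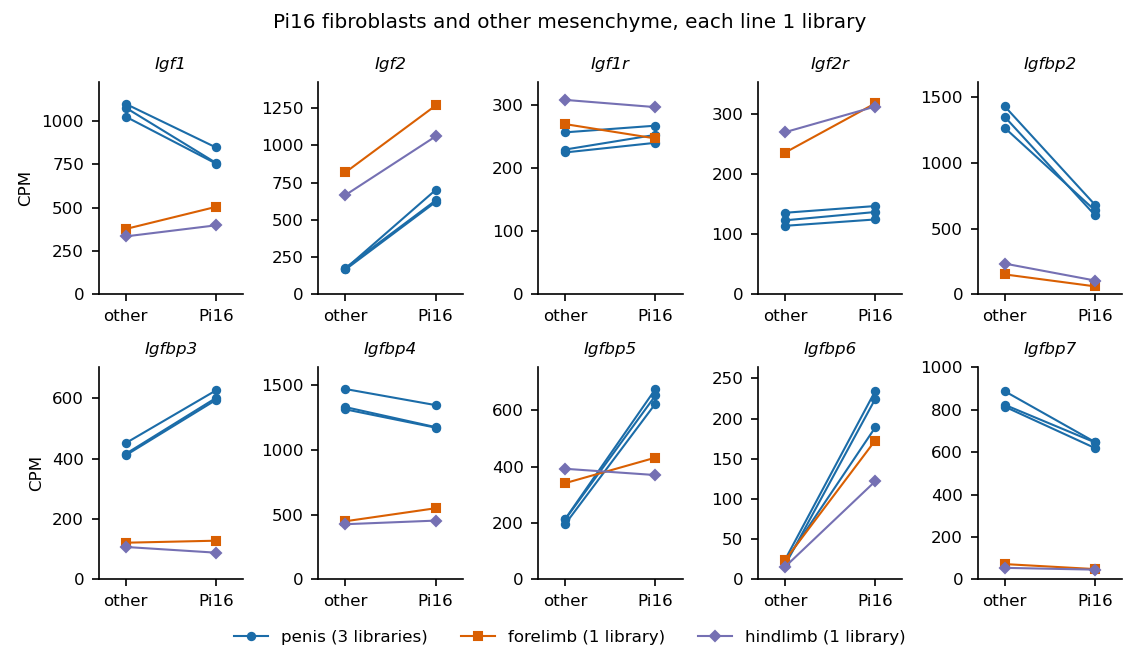
Levels of the 10 genes in CPM in other mesenchyme (left) and *Pi16* fibroblasts (right) of each library, with a line for each of the 3 penis, 1 forelimb and 1 hindlimb libraries. The lines of *Igf2* and *Igfbp6* climb in all 5 libraries, those of *Igfbp2* descend in all 5, and those of *Igfbp5* climb in the penis from about 200 to about 650 CPM.

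At a thinned depth of 2000 UMIs the 2 ligands were seen together in *Pi16* fibroblasts of the penis in 21.7, 22.0 and 21.6% of cells. Independent detection would give 26.6, 27.8 and 27.4%. In other penis mesenchyme the shares were 15.4, 15.8 and 16.2%, against 14.9, 15.2 and 15.8% for independent detection. In other limb mesenchyme they were at 24.8% in forelimb and 23.2% in hindlimb, against 20.5 and 19.7%. Limb *Pi16* fibroblasts had both ligands in 42.2% of forelimb and 34.3% of hindlimb cells, against 42.3 and 34.2%. *Igfbp2* and *Igfbp5*, the genomic neighbours, were seen together in 19.8, 19.2 and 21.3% of penis *Pi16* fibroblasts, against 23.2, 22.2 and 23.7%. In other penis mesenchyme this pair was at 15.2, 15.1 and 15.2%, against 14.4% in each library. In limb *Pi16* fibroblasts it was at 3.67% in forelimb and 6.64% in hindlimb, against 3.13 and 5.30%. In other limb mesenchyme it was at 6.89% in forelimb and 11.1% in hindlimb, against 6.53 and 10.3%. These values are descriptions of cells within a library and carry no test.

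Dividing mesenchyme cells, with at least 4 of 10 division genes detected, were compared with cells that had none. None of the 10 genes was called by edgeR, where 5.05% of all genes were called, and 8 were at an unadjusted p under 0.05, 4 of them at an adjusted p under 0.01. DESeq2 gave 0 calls. The fit took penis and limb libraries together, and whether a difference varied between the tissues was not tested. Of these 4 genes *Igfbp4* was the furthest. It stood at 1004, 859 and 800 CPM in dividing and 1455, 1294 and 1315 CPM in non-dividing penis cells, and at 336 and 327 CPM against 545 and 488 CPM in the limb. All 5 libraries had the lower value in dividing cells, with a log2 difference of -0.61 ± 0.05 (SE, edgeR adjusted p = 1.5e-05). *Igf1* (-0.49 ± 0.09), *Igfbp7* (-0.50 ± 0.12) and *Igfbp5* (-0.37 ± 0.08, SE) were the other 3. Of 33 other pathway genes tested, 0 were called in either direction.

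The genes whose levels ran most like those of a member over 51 sums of a library and a type were also noted, among 14869 genes. *Igf2r* ran with *Airn* (Pearson r = 0.98), which overlaps it, and *Igf2* with *H19* (0.92) and *Igf2os* (0.84). *Igfbp7* ran with *Sparcl1* (0.93), *Pam* (0.90) and *Sparc* (0.89), *Igfbp4* with *Fat4* (0.90), *Igfbp2* with *Spock2* (0.89), *Prlr* (0.88) and *Isl1* (0.87), and *Igf1* with *Il11ra1* (0.89), itself a mesenchyme marker of the gate. *Igfbp6* ran with the matrix genes *Dpt* (0.86), *Dcn* (0.85) and *Col3a1* (0.83). The values for *Igfbp3* with *Ier5l* (0.84) and *Igfbp5* with *Ube2e2* (0.83) were the highest for those genes. The sums share libraries, tissues and cell types, so these are descriptions with no test.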

How the data were processed

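The deposited values are UMI counts for each gene and cell barcode, which the authors obtained from 10x Genomics 3′ libraries of dissociated tissue by Cell Ranger 7.0.0 on mm10 (GRCm38). Counts as deposited were used, and whether introns were counted is not given in the sources used here. Members and lists were chosen with earlier results of these data known.

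Cells were kept with 500 to 6000 genes (penis), 100 to 9000 (forelimb) or 100 to 9500 (hindlimb), under 5% (penis) or 10% (limbs) mitochondrial UMIs and log10 genes per log10 UMI of at least 0.8. The study words its limits as reads per cell. They were read as genes per cell. A cell entered a gate with a UMI of at least 40% of the list (50% for mesenchyme) and of at least 3 markers. Cells of several gates were left out, doublets were not called otherwise, and mesenchyme took cells that no other gate took.

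Sums per library and gate of at least 20 cells were tested with edgeR 4.0.16 (limma 3.58.1, R 4.3.3): TMM scaling, filterByExpr, quasi-likelihood F tests, and p-values adjusted by Benjamini-Hochberg across every gene of the fit. Comparisons within a library and interactions had the library as a block. SEs were obtained as |log2 fold change| divided by √F. DESeq2 1.42.0, other gates, filters and depths were alternatives. Code was tested on simulated data. The naming rule took all 10 genes, the 2 called pathway genes of largest change per comparison and the 3 genes of highest Pearson r with each member. The likeness result for *Igf1r* is not reported here. Levels and shares came from pandas 2.3.3, numpy 2.4.6 and scipy 1.17.1 under Python 3.11.15, and figures from matplotlib 3.10.9. Promoters are from RefSeq and gene positions from GENCODE M21.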

Additional observations from a re-analysis of the deposited data

Results flagged for a closer look

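The penis to limb difference of 20 gene and type pairs differed from that in mesenchyme by the interaction test (edgeR quasi-likelihood, library as a block), and each is given as the log2 fold change in the type less that in mesenchyme. *Igfbp5* stood out for its range, at 3.40 in the lymphatic gate, 1.35 in endothelial, 1.21 in keratinocyte and -3.10 in glial cells. Penis cells of the lymphatic gate mostly carried only the minimum of 3 lymphatic markers. For *Igf2* the values were -2.56 in endothelial, -1.47 in lymphatic and -1.82 in cartilage-gate cells. *Igf1* was at 1.24 in cartilage-gate cells, -1.31 in lymphatic cells and -1.03 in the mural gate. *Igfbp7* was at -2.04 in endothelial and -1.90 in lymphatic cells, *Igfbp3* at -2.57 in endothelial cells, and *Igfbp2* at -1.51 in endothelial and -1.42 in keratinocyte cells. *Igfbp4* was at -1.08 in lymphatic cells, -1.36 in glial cells and -1.45 in macrophages. *Igfbp6* was at 1.295 in the tendon gate and -1.78 in the mural gate. Calls that were lost without 1 library are named with their values beside the results. No group had the 4 to 10 libraries that a check for a library far from the others needs.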

How the results depend on the processing

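Over 4238 values of the 10 genes under other settings, 3853 kept their direction and side of the threshold, 98 lost a call, 116 gained one, 169 uncalled values changed sign without a call and 2 changed sign with a call on one side. Both were with cells thinned to 2000 UMIs and gated anew. A gene that a setting left untested, under the filter on low counts, has no value there and is not among the lost calls. *Igf1* in the limb mural gate against mesenchyme, at -2.10, was called only then, and *Igfbp6* in the mural interaction, at 3.23, was no longer called. The cause was not tested for any of these. Counts of the 10 genes called that moved by more than 1.5 times were as follows. Thinning gave 3 for glial penis against limb, 7 for the penis and 5 for the limb mural gate against mesenchyme, and 5 for *Pi16* fibroblasts. A gate at 50% gave 7 and 2 for the penis and limb mural gates, and a gate at 30% gave 4 for penis glial and 6 for limb mast cells. For the limb mural gate DESeq2 gave 0 and assigning cells of several gates 2.

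For interactions, the mural count was 1 with DESeq2 size factors, without haemoglobin, mitochondrial and ribosomal genes, with a gate at 30%, without the cell filter and with cells of several gates, and 0 with DESeq2. The glial count was 4 without a filter on low counts. The keratinocyte count was 1 with DESeq2, a gate at 30% or thinning. The macrophage count was 2 with DESeq2 size factors, DESeq2, haemoglobin, mitochondrial and ribosomal genes left out, no cell filter or cells of several gates, and 3 without the low filter, with a gate at 30% or thinned. The cartilage-gate count was 4 with a gate at 50%, and the tendon-gate count 0 with DESeq2 or no cell filter, 3 with a gate at 50% and 2 thinned. With 1 library left out the counts ran from 5 to 8 for glial penis against limb, 3 to 5 for penis lymphatic and 0 to 2 for the penis mural gate against mesenchyme. They ran from 0 to 2 for the mural, 1 to 2 for the glial, 0 to 2 for the keratinocyte, 1 to 2 for the macrophage and 0 to 1 for the tendon-gate interaction. The all-gene counts moved by more than 1.5 times in 36 of 426 fits.

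Leaving out a limb library was not run within the limb, since 1 library has no replicate, and the lymphatic gate fell under 20 cells in penis library 1 when thinned or at 50%. No paired analysis was possible because the penis and limb libraries share no replicate numbers that pair animals. With 2 limb libraries and p-values over libraries only, small differences near the limit of 1 are the least certain.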

Other observations

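Some values lay outside the comparisons. Penis cells that passed the gate of osteoblast markers numbered 10, 13 and 11 in the 3 libraries, under the 20 needed for a test. Their *Igfbp5* stood at 1749, 1068 and 1330 CPM, against 341, 358 and 362 CPM in mesenchyme of the same libraries. The 8 and 4 limb cells of that gate had *Igfbp5* at 48.1 and 660 CPM, the forelimb value on 3 UMIs. Cells that passed no gate had *Igf1r* at 504, 521 and 576 CPM in the penis, against 224, 219 and 243 CPM over all kept cells. In the limb such cells had *Igf1r* at 371 and 422 CPM, against 292 and 344 CPM over all kept cells.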
